A study of Mus musculus with 8 samples.

Results

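A set of 9 G protein-coupled receptors (GPCRs), through which hormones, catecholamines and metabolites reach adipocytes, was followed in white adipocytes isolated from epididymal fat. They are the oxytocin receptor Oxtr, the adrenergic receptors Adrb1, Adrb3 and Adra2a, the adenosine A1 receptor Adora1, and the receptors for lactate (Hcar1), ketone bodies and nicotinic acid (Hcar2), long-chain fatty acids (Ffar4) and succinate (Sucnr1). The members are a list of gene names, drawn up with earlier results of these data known, and all 9 were found among the 30387 rows of the table. The study compared wild-type littermates (WT) with Ad-Yap/Taz-KO mice, in which an Adipoq-Cre transgene removes floxed Yap1 and Wwtr1 (the gene for TAZ) from fat cells. Each genotype was fed either a standard diet (SD, called normal chow in the sample labels) or a high-fat diet (HFD) for 4 weeks, and each of the 4 groups has 2 RNA-seq libraries. The series description starts the diets at week 5 of age, whereas the methods start them later. Diet and genotype aside, the groups share the tissue and the isolation of adipocytes. The study counts mice as the replicates of each group and calls its data biological replicates, while the sample labels name no animals.

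As background, most of these receptors act on the same switch of fat storage. Beta-adrenergic receptors couple to the stimulatory G protein Gs, which raises cyclic AMP, activates protein kinase A and drives lipolysis, the breakdown of stored triglyceride. Adra2a, Adora1, Hcar1, Hcar2 and Sucnr1 can couple to Gi, which lowers cyclic AMP and restrains lipolysis. Oxtr acts mainly through Gq and phospholipase C, and Ffar4 through Gq and beta-arrestin.

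The promoter windows of Oxtr, which had the largest called difference between genotypes, and of Adora1 and Sucnr1, which were called both between genotypes and between diets, are shown first, from 250 bases before to 50 bases after the annotated start of transcription (RefSeq, GRCm38.p6, printed along the strand of the gene). Windows were found for 7 of the 9 receptors, 8 windows in all, since Adora1 has 2; Adrb3 and Hcar2 were not matched. Capitals mark matches on either strand to GGAATG, the core of sites bound by TEAD factors, the DNA-binding partners of YAP and TAZ, or to TGANTCA, the AP-1 site. The third motif searched was TGACGTCA, the cyclic AMP response element.
Oxtr (chr6:112489776-112490075, minus strand): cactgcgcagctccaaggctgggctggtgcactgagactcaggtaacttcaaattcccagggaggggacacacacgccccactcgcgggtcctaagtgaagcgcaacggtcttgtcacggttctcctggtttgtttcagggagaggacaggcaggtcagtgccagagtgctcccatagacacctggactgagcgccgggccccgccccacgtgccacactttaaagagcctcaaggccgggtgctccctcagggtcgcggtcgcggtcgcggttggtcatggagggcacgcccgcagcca
Adora1, first window (chr1:134235408-134235707, minus strand): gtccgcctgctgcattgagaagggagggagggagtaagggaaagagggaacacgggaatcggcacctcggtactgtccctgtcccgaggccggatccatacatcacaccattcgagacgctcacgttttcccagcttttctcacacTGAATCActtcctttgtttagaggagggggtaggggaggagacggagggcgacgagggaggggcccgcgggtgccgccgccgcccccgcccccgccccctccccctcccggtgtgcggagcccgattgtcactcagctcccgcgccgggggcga
Adora1, second window (chr1:134234807-134235106, minus strand): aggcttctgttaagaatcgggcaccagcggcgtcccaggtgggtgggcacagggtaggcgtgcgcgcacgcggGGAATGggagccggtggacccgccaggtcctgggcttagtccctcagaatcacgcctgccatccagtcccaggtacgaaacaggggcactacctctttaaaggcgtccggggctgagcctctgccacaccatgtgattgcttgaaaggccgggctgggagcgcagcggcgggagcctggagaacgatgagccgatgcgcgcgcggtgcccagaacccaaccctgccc
Sucnr1 (chr3:60081619-60081918, plus strand): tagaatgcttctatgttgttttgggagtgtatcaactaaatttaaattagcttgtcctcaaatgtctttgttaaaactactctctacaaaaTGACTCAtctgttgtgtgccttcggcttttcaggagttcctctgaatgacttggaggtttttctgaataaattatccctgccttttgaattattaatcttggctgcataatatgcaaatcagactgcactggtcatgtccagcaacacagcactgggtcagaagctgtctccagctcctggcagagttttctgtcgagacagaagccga
GGAATG occurred in 1 of the 8 windows, the second one of Adora1, beginning 177 bases before the start, and it occurred in 14.7% of the 32851 mouse promoter windows of this length. TGANTCA occurred in 2 windows, 104 bases before the start in the first one of Adora1 and 159 bases before it in that of Sucnr1, against 7.81% of all windows. TGACGTCA occurred in 0 of the 8 windows and in 1.79% of all windows. The Oxtr window held none of the 3 motifs. These matches describe letters, not bound sites.

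The libraries held between 13.99 and 22.3 M reads counted on genes, as estimated from the spacing of the low values. Values are the deposited gene counts, each divided by a size factor for its library and rounded, and are called normalized counts. The 2 WT HFD libraries resembled each other more than other pairs: in genes with 1000 to 5000 reads their squared difference was 5.87 times the Poisson expectation, against 27.8 to 72.0 times in the other groups. Receptor calls that rest on them are therefore also given with both averaged to 1 sample, and for other genes the text says where such averaging ended a call. The targeted genes were lower in the labelled knockouts, with Wwtr1 at 4743 to 7121 normalized counts in the 4 WT libraries and 1957 to 2707 in the 4 knockout libraries, and Yap1 at 2333 to 2776 and 1549 to 2068. Whole-gene counts cannot show the deleted exons, and non-adipocytes in the preparation keep both genes.

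Markers of adipocytes were present in every library, but their amounts were not equal between groups, which bears on all receptor values. The summed normalized counts of 10 adipocyte markers (Adipoq, Plin1, Lep, Cidec, Fabp4, Lipe, Pparg, Retn, Cfd and Slc2a4) were 299039 and 316627 in WT SD, 256403 and 335851 in knockout SD, 393950 and 385828 in WT HFD, and 184632 and 98997 in knockout HFD libraries. On HFD, 9 of the 10 were lower in the knockout, and on SD 0 of 10 were called. The sum of 13 macrophage markers ran the other way, from 2400 and 2461 in WT HFD and 5141 and 5209 in WT SD to 17638 and 31742 in knockout SD and 31989 and 35272 in knockout HFD libraries, and all 13 were higher in the knockout on both diets. None of the 13 was at 0 in any library. In bulk samples, fewer cells of a type and less RNA per cell cannot be told apart. An alternative chosen after seeing the data scaled each library to its summed adipocyte markers, which moved the median log2 fold change of all genes between genotypes on HFD from 0.09 to 1.62; on that scale 63.6% of 19349 genes were called as higher in the knockout and 0.956% as lower.

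Levels of different receptors were compared per kb of annotated exon. In WT SD adipocytes, Adrb3 was highest, at 1798 and 1296 normalized counts per kb in the 2 libraries, and Hcar2 followed at 1311 and 1076, with overlapping libraries. Hcar1 (334 and 161), Oxtr (176 and 237), Sucnr1 (165 and 185), Ffar4 (104 and 179) and Adora1 (107 and 123) formed a middle range in which each receptor overlapped its neighbour in this order. Adrb1 (26.9 and 20.7) and Adra2a (8.07 in both libraries) were lowest and did not overlap their neighbours. In WT HFD adipocytes Oxtr was second, at 808 and 787 per kb, behind Adrb3 at 1391 and 1429, while Sucnr1 (426 and 529) and Adora1 (451 and 432) came next and overlapped. In knockout adipocytes the Oxtr mean was last on both diets, at 0 and 4.59 per kb on SD and 2.51 and 1.88 on HFD. The Adrb3 mean was still first, at 1107 and 1350 on SD and 816 and 331 on HFD. Oxtr overlapped Adrb1 (1.48 and 10.6) on SD, and Adrb3 overlapped Hcar2 (493 and 212) on HFD.

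**Figure D1:**
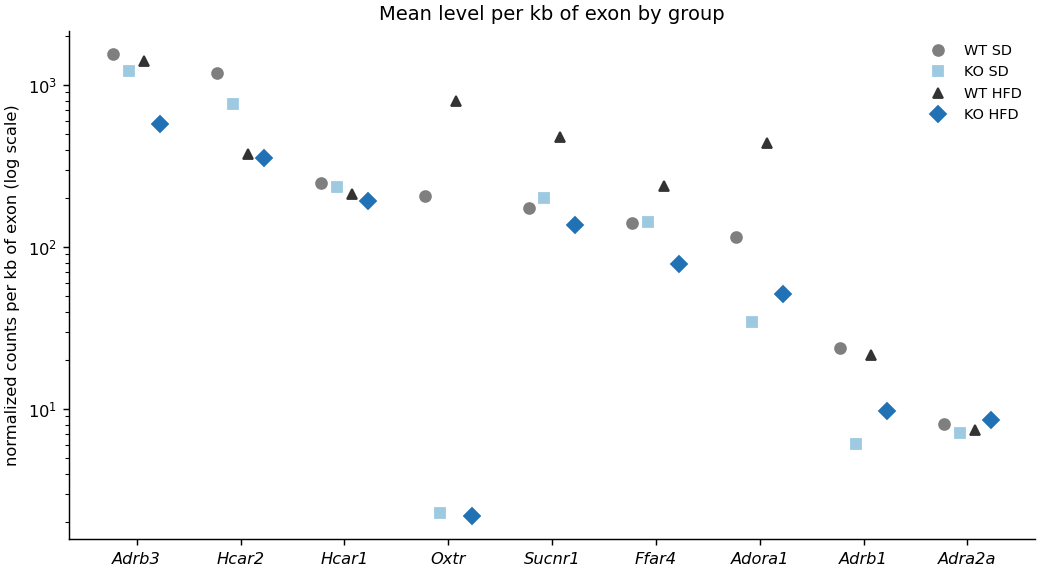
Mean level of each receptor per kb of exon (y axis, log scale) in the 4 groups (2 libraries each), with receptors ordered by their WT SD level. Adrb3 stands highest in every group, and Oxtr falls from 206 (WT SD) or 798 (WT HFD) to 2.30 (knockout SD) or 2.19 (knockout HFD) normalized counts per kb.

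The comparisons between groups asked which receptors differed between the genotypes and between the diets. On HFD, 5 of the 9 receptors were lower in Ad-Yap/Taz-KO than in WT adipocytes (Oxtr, Adora1, Sucnr1, Ffar4 and Adrb3) and 0 were higher, and the same 5 were called when both WT HFD libraries were taken as 1 averaged sample. In the same comparison 32.2% of the 18800 genes tested were called, 15.1% as lower and 17.1% as higher, and the median log2 fold change was -1.44 over the 9 receptors and 0.09 over all genes. On SD, 2 receptors were lower (Oxtr and Adora1), where 4.71% of genes were called, 1.5% as lower and 3.21% as higher. All 9 receptors passed the filter of a mean of at least 5 normalized counts. A call needed a limma p, adjusted over all genes by the Benjamini-Hochberg method, of 0.05 or less, and a change of 0.59 or more on the scale of log2(normalized count + 1). The test pools the spread across genes, since 2 libraries against 2 cannot give a two-sided exact permutation p below 0.333.

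**Figure D2:**
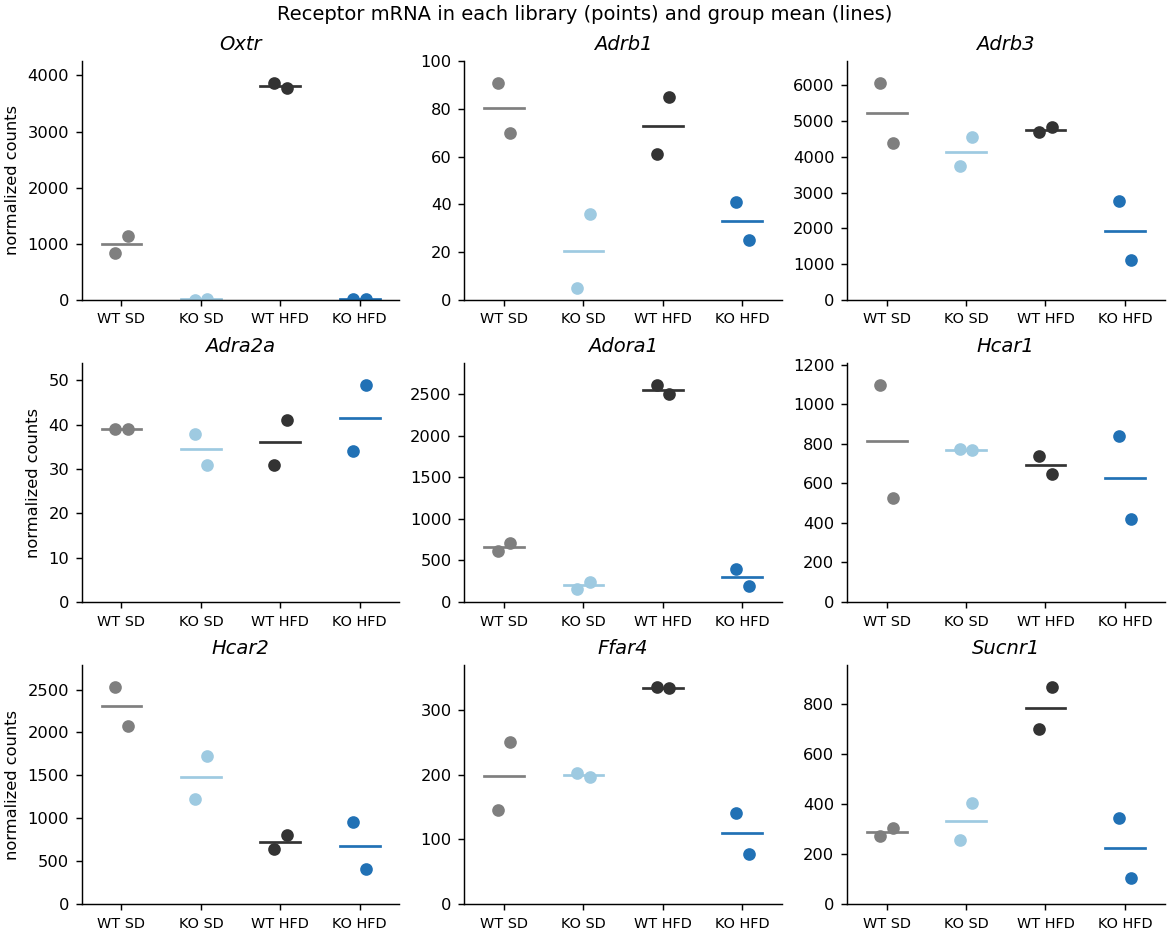
Normalized counts (y axes, each starting at 0) of the 9 receptors in each of the 8 libraries (points) with the group mean (lines). Oxtr, Adora1 and Adrb1 have each knockout library below each WT library on SD and on HFD, whereas for Hcar1 the genotypes overlap on each diet.

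Oxtr showed the largest difference of the 9 receptors. Oxtr (ENSMUSG00000049112, chromosome 6, 112473683 to 112489943, minus strand, GRCm38) had 841 and 1136 normalized counts in WT SD, 3870 and 3771 in WT HFD, 0 and 22 in knockout SD, and 12 and 9 in knockout HFD libraries. Every knockout library was thus far below every WT library, and the knockout groups overlapped. The WT mean was 89.9 times the knockout mean on SD and 364 times on HFD. The fit compares means of log2 values, and on SD, with 1 knockout library at 0, its difference of -7.67 on the log2 scale (standard error 0.95, limma adjusted p = 0.000380) is 204-fold and so larger than the ratio of means. On HFD the fitted difference was -8.39 (standard error 0.95, limma adjusted p = 3.35e-05). Because the knockout levels are near the floor of detection, where 3 reads correspond to 2.39 to 3.40 normalized counts, the SD value ran from -9.36 with a pseudocount of 0.1 to -5.99 with one of 8, and from -9.93 to -5.41 when 1 knockout SD library was left out; it was called in each case. Scaled to the summed adipocyte markers, Oxtr was also lower, by a log2 fold change of -7.61 on SD and -6.92 on HFD (limma adjusted p = 5.11e-06 and 7.72e-07).

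Between diets, Oxtr was 3.86 times higher on HFD than on SD in the WT means, and both HFD libraries were above both SD libraries. This difference did not pass the test (log2 fold change 1.97, 95% interval -0.10 to 4.03, limma adjusted p = 0.161, and 0.397 with both WT HFD libraries averaged). It passed when only the 2 WT groups were fitted (adjusted p = 0.000253), with a pseudocount of 8 (0.00911) or without either knockout SD library (0.000582 and 0.00116), since the fit shares 1 spread over all groups and the knockout SD libraries were at 0 and 22. In knockout adipocytes the 2 diets overlapped.

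The other genes of the oxytocin and vasopressin system on a list of 6 were few. Of 4 in the table, 2 could be tested. Avpr1a, a vasopressin receptor, had 231 and 196 normalized counts in WT SD, 220 and 106 in knockout SD, 47 and 33 in WT HFD, and 187 and 346 in knockout HFD libraries. It was higher in the knockout on HFD (log2 fold change 2.66, limma adjusted p = 0.000305), a direction opposite to that of Oxtr, and lower on HFD than on SD in WT adipocytes (-2.40, adjusted p = 0.00241). Lnpep, the membrane peptidase that degrades oxytocin, was lower in the knockout on HFD (-0.78, limma adjusted p = 0.00171), but higher when scaled to the adipocyte markers (0.74, adjusted p = 0.0358). On that scale 63.6% of all genes were called as higher and the median was 1.62, above the Lnpep value.

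Of the adrenergic receptors, Adrb3, the main beta-adrenergic receptor of rodent fat cells, was lower in the knockout on HFD. Adrb3 (ENSMUSG00000031489, chromosome 8, 27225776 to 27250616, minus strand) had 6070 and 4375 normalized counts in WT SD, 3737 and 4557 in knockout SD, 4696 and 4825 in WT HFD, and 2756 and 1117 in knockout HFD libraries. The knockout HFD libraries were the lowest 2 of the 8, and the SD groups overlapped. Its HFD genotype difference was -1.44 on the log2 scale (standard error 0.31, limma adjusted p = 0.00362), and the SD difference was -0.32 (95% interval -0.997 to 0.36, adjusted p = 0.668). Without knockout HFD library 2, which had the fewest adipocyte marker counts, the HFD value was -0.79 (adjusted p = 0.0164), and without library 1 it was -2.09 (adjusted p = 1.97e-05). Scaled to the summed adipocyte markers it was 0.09 and not called (limma adjusted p = 0.789). The difference of the 2 genotype effects did not pass the test (-1.12, limma adjusted p = 0.0972). It was called with the GC content and exon length trend removed, and ran from -1.77 to -0.47 when single libraries were left out. An antisense gene, Gm45470, overlaps 24.9% of the Adrb3 exon bases on the opposite strand and had 361 and 173 normalized counts in knockout HFD against 534 to 830 in the other 6 libraries. The sources do not state whether counting used the strand. Reads over several genes were excluded, so without strand, reads from the overlap would be missing from both counts.

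Adrb1, a second beta-adrenergic receptor, and Adra2a, the Gi-coupled catecholamine receptor, were sparse. Adrb1 (ENSMUSG00000035283, chromosome 19, 56722372 to 56724862, plus strand) had 91 and 70 normalized counts in WT SD, 5 and 36 in knockout SD, 61 and 85 in WT HFD, and 41 and 25 in knockout HFD libraries. All 4 knockout libraries were below all 4 WT libraries, yet neither comparison passed: the SD difference was -2.44 on the log2 scale (standard error 0.72, limma adjusted p = 0.0814), the HFD difference -1.144 (standard error 0.72, adjusted p = 0.239). The SD value rested on knockout SD library 1, with 5 counts: it was -1.13 without that library (limma adjusted p = 0.294) and -3.75 without knockout SD library 2 (adjusted p = 0.00344). Adra2a (ENSMUSG00000033717, chromosome 19, 54045182 to 54048982, plus strand) stayed between 31 and 49 normalized counts in all 8 libraries, and its HFD difference was 0.19 on the log2 scale (95% interval -0.87 to 1.25, limma adjusted p = 0.794).

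Adora1, the antilipolytic adenosine receptor, followed Oxtr most closely among the 9. Adora1 (ENSMUSG00000042429, chromosome 1, 134199223 to 134235431, minus strand) had 618 and 712 normalized counts in WT SD, 159 and 237 in knockout SD, 2611 and 2498 in WT HFD, and 399 and 191 in knockout HFD libraries. Both WT groups were above both knockout groups, and WT HFD was highest. It was lower in the knockout, with a difference of -1.77 on the log2 scale under SD (standard error 0.30, limma adjusted p = 0.00323) and of -3.20 under HFD (standard error 0.30, adjusted p = 6.42e-06), and it was higher on HFD than on SD in WT adipocytes (1.94, standard error 0.30, adjusted p = 0.00143). The SD call was lost without WT SD library 2 (adjusted p = 0.0682) and with no filter on low values (0.0523). Over the 8 libraries its log2 values had a Pearson correlation of 0.92 with Oxtr, a description, since the values share the libraries and the 4 groups. Mybph overlaps 20.1% of the Adora1 exon bases on the opposite strand, and had at most 10 normalized counts in any library.

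The receptors for metabolites did not move as 1 group. Sucnr1, the succinate receptor (ENSMUSG00000027762, chromosome 3, 60081869 to 60087566, plus strand), had 270 and 303 normalized counts in WT SD, 257 and 404 in knockout SD, 698 and 868 in WT HFD, and 343 and 103 in knockout HFD libraries. The WT HFD libraries stood above the other 6. It was lower in the knockout on HFD (log2 fold change -2.04, standard error 0.42, limma adjusted p = 0.00261), while on SD the value was 0.17 (95% interval -0.74 to 1.083, adjusted p = 0.885). Without knockout HFD library 2 the HFD value was -1.18 (adjusted p = 0.0127), and without library 1 it was -2.91 (adjusted p = 2.96e-05). Scaled to the summed adipocyte markers it was -0.52 and not called (limma adjusted p = 0.234).

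Ffar4, the fatty acid receptor also known as GPR120 (ENSMUSG00000054200, chromosome 19, 38097079 to 38114263, plus strand), had 146 and 251 normalized counts in WT SD, 203 and 196 in knockout SD, 336 and 334 in WT HFD, and 141 and 78 in knockout HFD libraries. The knockout HFD libraries were the lowest 2 and the WT HFD libraries the highest 2 of the 8. The HFD genotype difference was -1.67 on the log2 scale (standard error 0.33, limma adjusted p = 0.00197), that on SD 0.06 (95% interval -0.65 to 0.77, adjusted p = 0.954). Scaled to the summed adipocyte markers the HFD difference was -0.15 and not called (limma adjusted p = 0.759).

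Of the 2 hydroxycarboxylic acid receptors, whose genes lie 11237 bases apart on chromosome 5, Hcar2 was called between diets in WT adipocytes and Hcar1 was not; the difference of these responses was not tested. Hcar2 (ENSMUSG00000045502, 123863570 to 123865499, minus strand) had 2531 and 2076 normalized counts in WT SD, 1224 and 1727 in knockout SD, 639 and 803 in WT HFD, and 952 and 410 in knockout HFD libraries. It was lower on HFD than on SD in WT adipocytes (log2 fold change -1.68, standard error 0.31, limma adjusted p = 0.00428), and the knockout HFD libraries were likewise below the knockout SD libraries without passing the test (-1.22, adjusted p = 0.0842). Between genotypes it did not pass on SD (-0.66, 95% interval -1.33 to 0.02, limma adjusted p = 0.309) or on HFD (-0.20, 95% interval -0.87 to 0.48, adjusted p = 0.659). Hcar1 (ENSMUSG00000049241, 123876736 to 123880020, minus strand) had 1098 and 528 normalized counts in WT SD, 772 and 767 in knockout SD, 740 and 647 in WT HFD, and 837 and 420 in knockout HFD libraries, and on each diet the genotypes overlapped. Its diet difference in WT adipocytes was -0.14 on the log2 scale (limma adjusted p = 0.806). Its HFD genotype difference was -0.22 on the log2 scale (95% interval -0.94 to 0.50, limma adjusted p = 0.637).

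**Figure D3:**
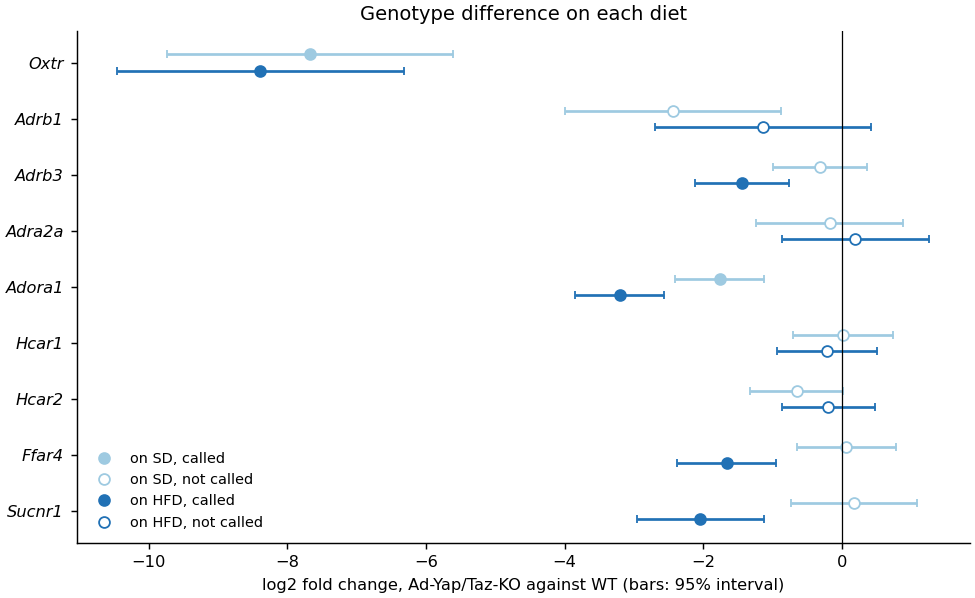
Log2 fold change of Ad-Yap/Taz-KO against WT adipocytes (x axis) for each receptor on SD and HFD, with 95% intervals from limma; filled points were called. Oxtr lies at -7.67 and -8.39 and Adora1 at -1.77 and -3.20, while Sucnr1, Ffar4 and Adrb3 were called on HFD only, which alone does not show that the diets differ.

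The effect of diet was called for 3 of the 9 receptors in WT adipocytes, where 18% of genes were called. Adora1 and Sucnr1 were higher on HFD (8.74% of all genes were higher) and Hcar2 was lower (9.22% were lower). Sucnr1 differed between diets by 1.44 on the log2 scale (standard error 0.42, limma adjusted p = 0.0316), and Ffar4, which was not called, by 0.80 (95% interval 0.09 to 1.51, adjusted p = 0.101). Ffar4 was called as higher with the GC content and exon length trend removed. With both WT HFD libraries taken as 1 averaged sample only Adora1 was called, with Hcar2 at an adjusted p of 0.0581 and Sucnr1 at 0.167. The Sucnr1 call was also lost on the adipocyte scale (limma adjusted p = 0.103), where Adora1 (0.873% of all genes higher) and Hcar2 (4.25% lower) were called, with no filter on low values (0.129), on scaling to the same total (0.0709), on quantile normalization (0.0681) and on leaving out any 1 of the 4 WT libraries (0.111 to 0.198); the Hcar2 call was lost without WT SD library 1 (0.0724) or WT HFD library 1 (0.0576).

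In knockout adipocytes limma called 0 of the 9 receptors between diets, where 1.07% of genes were called (0.383% higher and 0.691% lower), and 3 (Adrb3, Hcar2 and Ffar4) had an unadjusted p under 0.05. Adrb3 had a log2 fold change of -1.23 (limma adjusted p = 0.0814), Ffar4 one of -0.92 (0.198), Sucnr1 one of -0.77 (0.404) and Oxtr one of 1.25 (0.567). The Adrb3 value ran from -1.88 to -0.58 when single libraries were left out. Leaving out knockout HFD library 1 called Adrb3, Hcar2 and Sucnr1 as lower, without knockout SD library 1 Hcar2 was lower, and without knockout SD library 2 Oxtr was higher. On the adipocyte scale Oxtr, Adrb1 and Adora1 were called as higher on HFD, where 41.8% of all genes were higher, 0.14% lower and the median was 1.15.

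Whether the genotype effect differed between diets was tested as an interaction, which was called for 3 receptors where 17.4% of genes were called, 8.69% as higher and 8.73% as lower. The genotype effect was more negative on HFD than on SD for Sucnr1 (-2.21 on the log2 scale, standard error 0.59, limma adjusted p = 0.0256), Ffar4 (-1.72, standard error 0.46, adjusted p = 0.0257) and Adora1 (-1.44, standard error 0.42, adjusted p = 0.0344). For Oxtr it was -0.72 (95% interval -3.64 to 2.20, adjusted p = 0.744), but -2.98 and called without knockout SD library 1 (adjusted p = 0.00123) and 1.55 without knockout SD library 2 (0.0556). With both WT HFD libraries taken as 1 averaged sample 0 of the 3 were called by limma (adjusted p = 0.0974, 0.1003 and 0.124), and leaving out either WT HFD library, WT SD library 1 or knockout SD library 2 also left 0. With no filter on low values 0 were called, on scaling to the same total only Sucnr1, without WT SD library 2 only Ffar4, and without knockout HFD library 2 only Sucnr1. Leaving out single libraries, the interaction ran from -3.08 to -1.35 for Sucnr1, from -2.15 to -1.30 for Ffar4 and from -1.97 to -0.91 for Adora1. Scaled to the summed adipocyte markers, 0 were called as lower and 2 as higher, Adrb1 (2.72, limma adjusted p = 0.0443) and Hcar2 (1.92, adjusted p = 0.00464), where 33.6% of all genes were higher, 0.176% lower and the median was 1.55.

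The scale of the values mattered for the HFD comparison. On the scale of the summed adipocyte markers a fold change reads relative to the sum of those 10 genes. The HFD genotype comparison then called 2 receptors as lower, Oxtr (-6.92) and Adora1 (-1.68, limma adjusted p = 0.000358), and 3 as higher, Adra2a (1.68, adjusted p = 0.0365), Hcar1 (1.30, 0.00545) and Hcar2 (1.33, 0.00155). Over all genes 63.6% were higher, 0.956% were lower and the median was 1.62 on this scale, so that 3 of 9 higher is not above the background and the Hcar1 and Hcar2 values lie below the median. Adrb3 (0.09, adjusted p = 0.789), Ffar4 (-0.15, 0.759) and Sucnr1 (-0.52, 0.234) were no longer called. On SD, Oxtr and Adora1 were called as lower under both scalings, where 0.295% of all genes were lower and 1.53% higher on the adipocyte scale. The markers themselves were lower in the knockout on HFD, so neither scale is neutral, and the part of adipocyte content in the lower Adrb3, Ffar4 and Sucnr1 values was not tested. Between diets in WT adipocytes, 2 of the 10 markers were called as higher and 1 as lower. Cfd, a large part of the sum, went from 112117 and 115512 normalized counts in WT SD to 44882 and 44048 in WT HFD libraries. Lep went from 10493 and 19324 to 72885 and 73642. In knockout adipocytes Cfd went from 105691 and 117774 on SD to 19352 and 16577 on HFD. Diet and interaction values on this scale read relative to that changing sum.

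**Figure D4:**
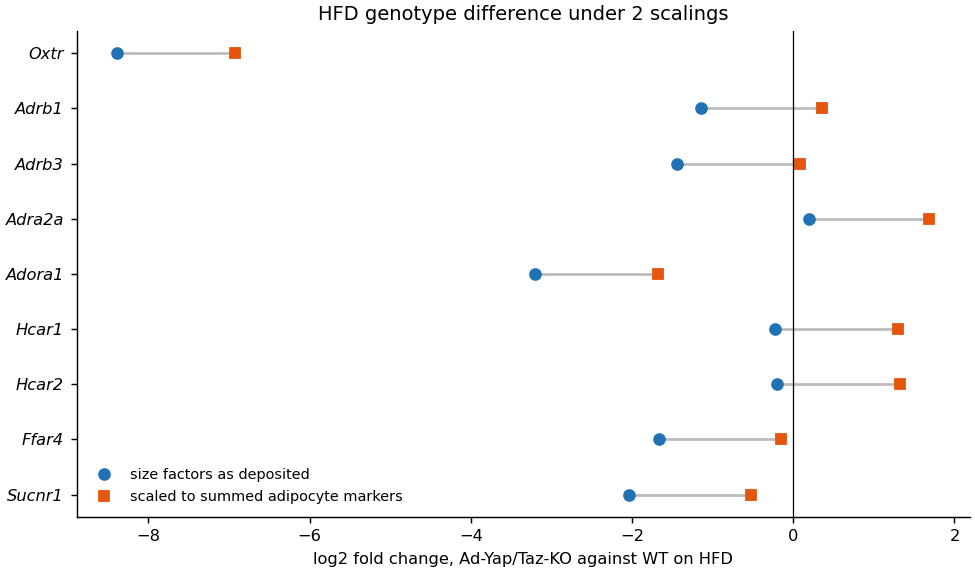
HFD genotype difference as a log2 fold change, knockout against WT (x axis), for each receptor with the deposited size factors (circles) and after scaling to the summed adipocyte markers (squares). Oxtr (-8.39 and -6.92) and Adora1 (-3.20 and -1.68) stay below 0 and called on both scales. Sucnr1 (-2.04 and -0.52) and Ffar4 (-1.67 and -0.15) also stay below 0, but were called only with the deposited size factors. Adrb3 moves from -1.44 to 0.09.

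Ratios of 2 receptors within a library do not depend on a scaling by 1 factor per library. The Adrb3 to Adora1 ratio, a stimulatory over an inhibitory receptor, was 9.82 and 6.14 in WT SD, 23.5 and 19.2 in knockout SD, 1.80 and 1.93 in WT HFD, and 6.91 and 5.85 in knockout HFD libraries. On each diet both knockout libraries were above both WT libraries. The Hcar2 to Hcar1 ratio was 2.31 and 3.93 in WT SD and 1.59 and 2.25 in knockout SD, against 0.86 and 1.24 in WT HFD and 1.137 and 0.98 in knockout HFD libraries, so that every HFD library was below every SD library.

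**Figure D5:**
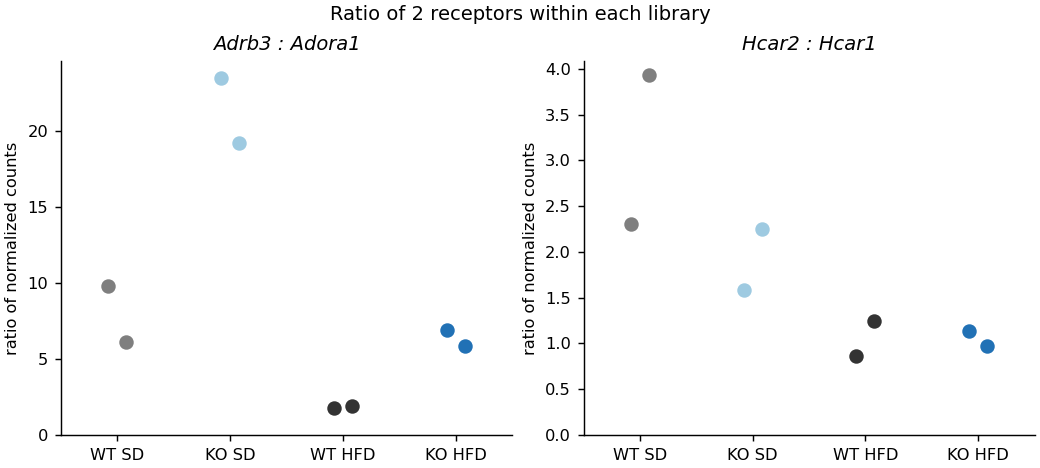
Ratio of normalized counts of Adrb3 to Adora1 (left) and of Hcar2 to Hcar1 (right) in each library (points, y axes from 0). The first ratio is lowest in WT HFD (1.80 and 1.93) and highest in knockout SD (23.5 and 19.2), and the second is lower on HFD than on SD in every library.

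Other GPCRs of adipose tissue moved in both directions. Of 54 on a list, 49 were tested, and in the HFD genotype comparison 12 were higher and 11 lower in the knockout, with a median log2 fold change of 0.61 against 0.09 over all genes, of which 17.1% were higher and 15.1% lower. Scaling to the adipocyte markers called 38 in either direction, where 63.6% of all genes were higher and 0.956% lower. Normalized counts of Ptgfr, the prostaglandin F receptor, were 229 and 299 in WT HFD and 21 and 4 in knockout HFD libraries (-4.65, limma adjusted p = 0.000543; -5.72 without knockout HFD library 1 and -3.58 without library 2), and Mc2r, the ACTH receptor, had 277 and 321 against 20 and 12 (-4.18, adjusted p = 3.12e-05). S1pr2, a sphingosine 1-phosphate receptor, went from 15 and 19 to 143 and 128 (2.93, limma adjusted p = 0.000151). On SD 4 were lower and 0 higher, where 1.5% and 3.21% of all genes were, led by Pth1r, the parathyroid hormone receptor (-2.12, limma adjusted p = 0.00122), Mc2r (-2.11, 0.0207) and the apelin receptor Aplnr (-1.15, 0.0127). The number called was 1 to 7 without single libraries. On the adipocyte scale only Pth1r was called of these 3 (limma adjusted p = 0.0389, with Mc2r at 0.0623 and Aplnr at 0.410), and averaging the WT HFD libraries also ended the Mc2r call (0.0536). In WT adipocytes 6 were higher and 11 lower on HFD, where 8.74% and 9.22% of all genes were, and Ptger3, the Gi-coupled prostaglandin E receptor, rose from 586 and 614 to 6002 and 6192 normalized counts (3.34, limma adjusted p = 4.35e-05). On averaging both WT HFD libraries, 8 in all were called between diets, and Ptger3 was among them.

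The signalling genes downstream were mixed, and their HFD counts stand beside 17.1% of all genes higher, 15.1% lower and a median log2 fold change of 0.09. Of 16 G protein subunits, 2 were higher and 5 lower in the knockout on HFD (median -0.17), with Gnai1, a Gi alpha subunit, at 6636 and 6809 in WT and 2068 and 910 in knockout libraries (-2.29, limma adjusted p = 7.96e-05) and Gna13 at 1692 and 1681 against 5563 and 5303 (1.69, adjusted p = 1.09e-05). On SD 2 were higher, Gng2 (1.20) and Gna13 (0.65), and 0 were lower, where 3.21% and 1.5% of all genes were; Gng2 kept its call in 10 and Gna13 in 4 of the 14 alternatives that left out no library, and both lost it on the adipocyte scale and with the WT HFD libraries averaged. Of 24 adenylate cyclases, phosphodiesterases, and protein kinase A subunits or anchoring proteins, 5 were higher and 6 lower on HFD (median 0.09). Adcy7, an adenylate cyclase also found in leukocytes, went from 124 and 123 to 2122 and 1788 (3.97, limma adjusted p = 6.48e-08), whereas the phosphodiesterase Pde4d (-1.50) and the protein kinase A subunit Prkar2b (-1.34) were lower but lay at 0.03 and 0.19 after scaling to the adipocyte markers. Of 19 receptor kinases, arrestins and regulators of G protein signalling, 9 were higher and 1 lower on HFD (median 0.68). Rgs1, an RGS protein abundant in leukocytes, went from 82 and 68 to 3113 and 2822 (5.29, limma adjusted p = 1.85e-08), and Rgs10 and Rgs2 were also higher (4.96 and 2.05). These rises stood beside the macrophage marker sums given above, and the part of macrophage RNA in them was not tested. Of 13 genes of the phospholipase C and calcium branch used by Oxtr, 4 were higher and 4 lower on HFD (median -0.10). The higher ones were the protein kinase C genes Prkcb (3.02) and Prkcd (2.13) and the calcium channels Itpr3 (1.94) and Orai1 (0.94). The lower ones were the protein kinase C genes Prkca (-1.28) and Prkce (-0.65), the calcium sensor Stim1 (-0.95) and the phospholipase Plcb1 (-0.77); these 4 and Orai1 were named after their values were seen. Of the 14 alternatives that left out no library, Orai1 kept its call in only 6 (adjusted p up to 0.365 by limma) and Prkce in 10, and both lost it with the WT HFD libraries averaged. Scaled to the adipocyte markers the 4 lower genes lay above 0, with Prkce (0.88) and Plcb1 (0.76) called as higher (limma adjusted p = 0.0164 and 0.0451), all of them below the median of 1.62 over all genes. On that scale, where 63.6% of all genes were higher, 12 of the G protein subunits were called in either direction. So were 18 of the adenylate cyclase list, 17 of the receptor kinase list and 11 of the phospholipase C list. The Gnai1 value with the deposited size factors ran from -2.88 to -1.70 when single libraries were left out.

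The lipolysis machinery controlled by these receptors was lower in the knockout on HFD in 6 of 10 genes and higher in 0, with a median log2 fold change of -1.17, against 15.1% of all genes lower, 17.1% higher and a median of 0.09. Normalized counts of the lipid droplet protein Cidec were 53794 and 55262 in WT and 22406 and 7501 in knockout HFD libraries (-2.07, limma adjusted p = 0.000984; -2.86 without knockout HFD library 1 and -1.28 without library 2), the droplet coat protein Plin1 was lower (-1.73, adjusted p = 0.000313), as was Lipe, the hormone-sensitive lipase (-1.57, adjusted p = 0.000856); these 3 genes are also on the adipocyte marker list. Scaled to the summed adipocyte markers, none of the 3 was called, with Cidec at -0.54, Plin1 at -0.21 and Lipe at -0.04 (limma adjusted p = 0.110, 0.508 and 0.890). On SD, where 1.5% of all genes were lower and 3.21% higher, 0 were lower and 1 was higher, Cidea, at 3 and 12 in WT and 76 and 86 in knockout libraries (3.505, limma adjusted p = 0.00762), which fell to 2.65 and was not called without WT SD library 1. In WT adipocytes Lipe (0.91) and Mgll (0.86), the monoglyceride lipase, were higher on HFD (limma adjusted p = 0.0348 and 0.0161), but neither was called with the WT HFD libraries averaged (0.190 and 0.1295) or on the adipocyte scale (0.236 and 0.278).

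Of 17 tested genes that supply or clear the ligands, 5 were higher and 8 lower in the knockout on HFD (median log2 fold change -0.59), against 17.1% and 15.1% of all genes (median 0.09). Normalized counts of Slc22a3, a catecholamine transporter, were 2733 and 2651 in WT and 921 and 388 in knockout HFD libraries (-2.17, limma adjusted p = 0.000131), but Slc22a3 lay at -0.64 and was not called after scaling to the adipocyte markers (adjusted p = 0.0709). With the deposited size factors the Slc22a3 value ran from -2.79 to -1.55 when single libraries were left out. Acod1, the macrophage enzyme that makes itaconate and thereby affects succinate, was higher on both diets (2.80 on SD and 2.15 on HFD, limma adjusted p = 0.0140 and 0.0132). The SD value was 1.69 and not called without WT SD library 2, and the HFD call did not hold when both WT HFD libraries were averaged (adjusted p = 0.0697). In WT adipocytes Slc22a3 (1.30) was higher on HFD and Nt5e, which makes adenosine from AMP, was lower (-1.69), but with the WT HFD libraries averaged neither was called (limma adjusted p = 0.0967 and 0.117).

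The genes whose pattern over the 8 libraries was most like that of Oxtr, among 12089 others averaging 50 normalized counts or more, were 2900097C17Rik (Pearson r = 0.99 of log2 values), Sun2 (0.98), Epn2 (0.97), Cobll1 (0.97) and Pkp2 (0.97). Pearson r does not weigh the size of a difference. 2900097C17Rik had 62 and 58 normalized counts in WT SD against 32 and 43 in knockout SD libraries. Sun2 had 3573 and 3712 against 2324 and 2867. Of the 5 genes, Pkp2 had the largest difference between genotypes. Pkp2, a desmosomal protein, had 1806 and 2222 normalized counts in WT SD, 174 and 251 in knockout SD, 3190 and 3153 in WT HFD, and 209 and 157 in knockout HFD libraries, so that all WT libraries were above all knockout libraries. For Adrb3 the most alike were Zfp503, Alad, Sod1, Osbpl1a and Dgcr6 (r = 0.98 each). These correlations share the libraries and the 4 groups, and carry no test.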

How the data were processed

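RNA from isolated epididymal adipocytes was measured in 8 libraries of 4 groups, assigned from the sample titles. Per the study's methods and its processing notes, the authors removed ribosomal RNA, trimmed the reads, aligned them to GRCm38 with STAR 2.5.2b, counted reads on exons with featureCounts 1.5.1, excluding reads over several genes or positions, and tested genes with DESeq2 1.14.1. The values they deposited are a score: for each gene its count over the size factor of the library, as a rounded number. Whole reads could not be recovered exactly, so no count test was run here. The value of 1 read, 0.795 to 1.13 normalized counts, was estimated from which low whole numbers occur and gives the depth of 13.99 to 22.3 M reads. Counting error alone is a lower limit on the error, since reads carry no molecular identifiers.

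Genes with a mean of at least 5 (18800 of 30387) were tested with limma 3.58.1 in R 4.3.3 (lmFit, eBayes with trend) on log2(value + 1), with 4 group means in 1 fit, 4 residual and 8.59 prior degrees of freedom, and Benjamini-Hochberg adjustment over all genes tested. Fold changes are differences of mean log2 values on that scale: the pseudocount draws low values together, while a single very low library can take the fold above the ratio of group means. The fit was tested on simulated data. A call needed an adjusted p of 0.05 or less and a change of 0.59 or more on the log2 scale, limits taken from the study's methods. The 5 contrasts were the genotypes on each diet, the diets in each genotype, and the interaction.

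The members and gene lists were chosen with earlier results of these data known. Named were the 9 receptors, Yap1 and Wwtr1, up to 3 called genes per pathway list and contrast with the largest change and a mean of at least 50, and the 5 genes most correlated with Oxtr and with Adrb3. Of the lists' interaction and knockout diet results none is named. One gene that the rule names is not reported here. Alternatives were a pseudocount of 0.1 or 8, a filter at 0 or 50 in place of 5, scaling to equal totals, to the upper quartile or by quantiles, a fit of the groups compared, robust eBayes, a replicate block, leaving out each library, averaging the WT HFD libraries, removing the trend over GC content and exon length, and a call by adjusted p alone; scaling to the adipocyte markers was added after seeing the data. Exon lengths and overlaps came from GENCODE vM21, promoters from RefSeq. Markers of endothelial cells, fibroblasts, mesothelium, pericytes, lymphocytes, neutrophils and lipid-associated macrophages were also counted. Other software was pandas 2.3.3, numpy 2.4.6 and matplotlib 3.10.9 under Python 3.11.15.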

Additional observations from a re-analysis of the deposited data

Results flagged for a closer look

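For 3 receptors the genotype effect differed between the diets by the interaction test. The effect on HFD minus that on SD was -2.21 for Sucnr1, -1.72 for Ffar4 and -1.44 for Adora1 on the log2 scale (limma adjusted p = 0.0256, 0.0257 and 0.0344), with each WT HFD library above each knockout HFD library. Relative to the summed adipocyte markers the same differences were -0.76, -0.27 and 0.02 (limma adjusted p = 0.264, 0.715 and 0.976). The adipocyte marker sum was itself lower in the knockout HFD libraries, and its part in these differences was not tested. With single libraries left out, the Sucnr1 value in normalized counts ran from -3.08 to -1.35. Groups of 2 libraries are too small for a test of single outlying libraries.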

How the results depend on the processing

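In the HFD genotype comparison the same 5 receptors were called as lower under every alternative except the adipocyte scaling described above; the number called was 5 to 6 when single libraries were left out. On SD 1 to 3 were called without single libraries, and 1 with no filter on low values. In WT adipocytes between diets 1 to 4 were called without single libraries and 1 with both WT HFD libraries taken as 1 averaged sample. In knockout adipocytes the number was 0 to 3 without single libraries, 1 with the GC content and exon length trend removed, and 3 on the adipocyte scale (Oxtr, Adrb1 and Adora1, all higher on HFD, as were 41.8% of all genes). For the interaction it was 0 to 4 without single libraries, 0 with no filter or the WT HFD libraries averaged, and 1 on scaling to the same total, while the adipocyte scale called 2 others, Adrb1 and Hcar2, as higher, as were 33.6% of all genes. With the GC content and exon length trend removed, the interaction was called for 4 receptors, Adrb3 among them. The cause was not tested except where fewer samples or more genes tested are the alternative itself.

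Some signs reversed. On scaling to the same total, which moved the median log2 fold change of all genes on HFD from 0.09 to 0.47, Hcar1 lay at 0.16 and Hcar2 at 0.19 between genotypes on HFD. Adra2a lay at -0.37 with quantile normalization and at -0.19 with the GC content and exon length trend removed, which also put Hcar1 at 0.070 between diets in WT adipocytes. The Oxtr interaction was 0.85 with a pseudocount of 0.1. On the adipocyte scale the HFD genotype values were 0.35 for Adrb1, 0.088 for Adrb3, 1.30 for Hcar1, 1.33 for Hcar2, 0.74 for Lnpep, 0.11 for Gnao1, 0.028 for Pde4d, 0.19 for Prkar2b, 0.76 for Plcb1, 0.24 for Prkca, 0.88 for Prkce and 0.58 for Stim1, the knockout diet values 0.19 for Ffar4 and 0.34 for Sucnr1, and the interaction 0.69 for Oxtr, 0.34 for Adrb3 and 0.019 for Adora1. These HFD genotype values all lay below the median of 1.62 over all genes on that scale. Without single libraries the HFD genotype value ran from -0.067 to 0.45 for Adra2a, from -0.72 to 0.27 for Hcar1 and from -0.80 to 0.41 for Hcar2, the SD genotype value from -0.33 to 0.45 for Ffar4 and from -0.15 to 0.50 for Sucnr1, the knockout diet value from -1.01 to 3.51 for Oxtr and from -1.64 to 0.090 for Sucnr1, the WT diet value from -0.67 to 0.39 for Hcar1, and the interaction from -2.98 to 1.55 for Oxtr, from -0.017 to 2.61 for Adrb1 and from -0.15 to 1.07 for Hcar2.

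Deviations of same-numbered libraries correlated between -0.30 and 0.11 over 12093 genes, which gave no clear sign that the replicate numbers pair the samples. With 2 libraries a group, this check cannot exclude a pairing. With the replicate number as a block, 5, 2, 3, 0 and 2 receptors were called in the 5 contrasts, and the Adora1 interaction was lost (limma adjusted p = 0.0513). The split of all calls on HFD moved from 3213 higher and 2840 lower to 4622 and 1365 on scaling to the same total, to 12307 and 185 on the adipocyte scale and to 2331 and 4460 with the GC content and exon length trend removed. The order of levels per kb kept 34 of 36 places with the longest transcript as length, and all 36 on scaling to the same total. Depth limits Oxtr and Adrb1 in the knockout, at 0 to 41 normalized counts.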

Other observations

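Markers of other cell types than adipocytes and macrophages also differed in their amounts. On HFD, 6 of 9 fibroblast and progenitor markers and 4 of 9 endothelial markers were higher in the knockout and 0 were lower, and on SD 0 of either list were called. The summed fibroblast and progenitor markers were 21982 and 22371 in WT HFD and 68737 and 77006 in knockout HFD libraries, and the endothelial markers 16531 and 17058 against 22134 and 33638. Of 7 lipid-associated macrophage markers, 6 were higher on each diet in the knockout, and 1 was lower on HFD. Of the mesothelial markers 1 was higher and 1 lower on HFD, of the pericyte and smooth muscle markers 3 were higher and 2 lower, of 6 tested lymphocyte markers 2 were higher, and of 4 tested neutrophil markers 1 was higher.

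Relative to the adipocyte marker sum, Sucnr1 did not follow the order seen in normalized counts. Per 100000 counts of the markers it stood at 90.3 and 95.7 in WT SD, 100.2 and 120.3 in knockout SD, 177.2 and 225.0 in WT HFD, and 185.8 and 104.0 in knockout HFD libraries, so that the HFD genotypes overlapped. Adora1 stood at 206.7 and 224.9, 62.0 and 70.6, 662.8 and 647.4, and 216.1 and 192.9 in the same order, and Adrb3 at 2030 and 1382, 1457 and 1357, 1192 and 1251, and 1493 and 1128.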
